A study of Homo sapiens with 26 samples.

Results

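The genes described here are 40 genes of the amino acid stress response that is driven by the transcription factor ATF4, out of 26485 gene symbols in the tables. The list was chosen by hand after one of its genes, AARS, was seen to be higher under siBRDT in KYSE180 and TE6 cells and lower under BRDT overexpression in KYSE150 cells. The values of those 3 comparisons therefore chose the list and are given below as a description with no test. The siTP63 comparisons were not used for that choice, but TE6 siTP63 shares its control libraries with TE6 siBRDT. Earlier results of these data were also known when the genes were chosen. A gene was tested where its mean normalised read count over the libraries of a table was at least 10. All 5 tables met this for 39 of the 40 genes, and for 11337 of all gene symbols. The exception was CBS, with table means of 0.375 and 0 in the KYSE150 tables, and the nearest gene inside the limit was VLDLR, whose lowest table mean was 41.1.

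mRNA-seq was performed on 26 libraries of KYSE180, TE6 and KYSE150, 3 established human cell lines of esophageal squamous cell carcinoma. Knockdown cells received a small interfering RNA (siRNA) against BRDT (siBRDT), one against TP63 (siTP63) or a nontargeting control (siCont) and were collected after 48 h. KYSE180 had 3 siBRDT and 3 siCont libraries in 1 table and 2 siTP63 and 2 siCont libraries in another, TE6 had 2 libraries each of siCont, siBRDT and siTP63 in 1 table, and KYSE150 had 2 siTP63 and 2 siCont libraries. BRDT-OE denotes 3 KYSE150 libraries of cells electroporated with a BRDT plasmid, compared with 3 libraries of cells that received the control vector. Per the labels, KYSE180 and TE6 were grown in RPMI-1640 with 10% fetal bovine serum and KYSE150 in the same medium with 5%, while the study's methods name RPMI/F12 for KYSE150. Serum and possibly basal medium therefore cannot be told apart from the cell line. KYSE150 lacks endogenous BRDT by the study's account, and its BRDT values were 6.58 to 16 with the vector and 60.9 and 8.25 in siCont. Which siRNA, or pool of siRNAs, was used for each gene in these libraries is not given in the sources used here. The labels number the replicates but do not say that they were separate cultures, so p-values measure only the spread between these libraries, which may be technical.

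The deposited values are the reads counted per gene over a scaling factor of the library, called normalised read counts here, and they can be compared between libraries of 1 table only. Libraries held 7582089 to 19372441 reads. Pearson's r of log2 values between replicates of a group, taken across genes, ran from 0.971 in KYSE150 siTP63 to 0.996 in BRDT-OE. The squamous markers KRT5, KRT6A, KRT14, KRT17, DSG3, PKP1 and TP63 were detected in all lines, while SOX2 was under 10 in every KYSE150 library. The leukocyte markers PTPRC and CD3E, the endothelial marker PECAM1 and the fibroblast marker DCN stayed at or under 9.8 in every library. The fibroblast gene COL1A1 did not, with group means from 62.4 in KYSE150 siCont to 934 in KYSE180 siBRDT. The endothelial marker CDH5 reached 145 in KYSE150 siTP63. BRDT fell from 1017, 1043 and 1136 in siCont to 132, 147 and 198 in siBRDT of KYSE180, and from 241 and 242 to 55 and 46.6 in TE6. BRDT-OE raised it from 8.13, 16 and 6.58 to 15872, 15927 and 17542.

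When amino acids run short, uncharged tRNA activates the kinase GCN2 (EIF2AK4), which phosphorylates the initiation factor eIF2 alpha. General translation then drops while the ATF4 mRNA is translated more, so the amount of ATF4 protein, which was not measured here, need not follow that of its mRNA. ATF4 pairs with C/EBP proteins on short DNA elements and raises genes for amino acid synthesis, amino acid transport and tRNA charging, along with feedback genes such as TRIB3, DDIT3 and CHAC1. Other stresses, among them misfolded protein in the endoplasmic reticulum, reach the same factor through other kinases.

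The core of the C/EBP-ATF element, written TGATGNAA, was searched for on both strands in the 250 bases before the transcription start of RefSeq promoters (GRCh38.p14). Promoter sequences were found for 34 of the 40 genes, and 8 of them (23.5%) held the motif, against 1061 of 27305 promoter symbols (3.89%). The more specific TGATGCAA, a subset of that motif, stood in 6 of the 34 (17.6%) and in 0.967% of all, and the extended TGATGNAAT, another subset, in 1 of them (2.94%) and in 1.09% of all. The matches are shown because ATF4 is known for binding this element. They are printed 5′ to 3′ on the strand of the gene, with the motif or its reverse complement in capitals and up to 11 bases on each side.

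CEBPG (chr19:33374060-33374089, plus strand): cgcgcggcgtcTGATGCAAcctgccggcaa
JDP2 (chr14:75427995-75428021, plus strand): atagccggggcTGATGCAAcccgtccc
CHAC1 (chr15:40953251-40953280, plus strand): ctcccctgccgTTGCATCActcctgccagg
ASNS (chr7:97872458-97872487, minus strand): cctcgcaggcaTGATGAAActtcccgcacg
SLC1A5 (chr19:46784893-46784922, minus strand): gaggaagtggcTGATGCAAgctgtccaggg
AARS (chr16:70289675-70289704, minus strand): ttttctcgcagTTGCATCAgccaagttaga
GARS (chr7:30594834-30594863, plus strand): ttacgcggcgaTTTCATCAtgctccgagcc
IARS (chr9:92293698-92293721, minus strand): ttttcagcgcgTTGCATCAcctcc

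The first base of the motif lay between 13 bases (IARS) and 209 bases (CHAC1) before the RefSeq start used. Each match also lay within the gene's span in GENCODE release 44, since other transcripts of these genes begin farther upstream. In those transcripts the motif was in an intron for CEBPG and JDP2, in an exon for CHAC1, ASNS, AARS and IARS, and in either for SLC1A5 and GARS, never in coding sequence. A match is a description of letters and does not show binding, and the absence of one says only that these letters are not in this window.

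In the siBRDT comparisons, genes of the list were mostly higher than in siCont, and more of them met the call rule in TE6 than in KYSE180. The call rule asks for an adjusted p under 0.05 (limma, Benjamini-Hochberg over all genes) together with a log2 fold change beyond 0.5 in either direction. In KYSE180 10 of 40 genes met it upward and 3 downward, where 14.5% of all 13589 genes met it upward and 15.8% downward. In TE6 it was 22 upward and 4 downward, against 15.6% and 18.1% of all 13333 genes. The median log2 fold change of the list was 0.26 in KYSE180 and 0.53 in TE6, and that of all genes was -0.01 and -0.04. TP63 itself fell in both (-0.58 ± 0.07 in KYSE180 and -1.15 ± 0.12 in TE6), and 7 of 8 squamous markers, TP63 included, were called down in KYSE180 and 5 of 8 in TE6. Their part in the values of the list was not tested. In these bulk libraries, a change in the share of cells in a state and a change in the RNA per cell cannot be told apart.

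Under BRDT-OE the list stood on the other side of 0. No gene of 39 met the call rule upward and 18 met it downward, where 10.5% of all 12765 genes met it upward and 16.0% downward, and the median log2 fold change was -0.41, against 0.02 for all genes. Since AARS in these 3 comparisons led to the list, nothing is read from these counts about the list. CEBPB, TRIB3, ASNS and AARS, 4 of 39, met the rule upward in both siBRDT comparisons and downward under BRDT-OE, and 21 of 39 had fold changes above 0 in both siBRDT comparisons and below 0 under BRDT-OE. Of the 11337 genes tested in every table, 0.900% and 13.8% did so, and nothing is read from this either, since AARS was chosen for that pattern. ATF4, PSPH, SHMT2 and MARS met it upward in both siBRDT comparisons without meeting it under BRDT-OE, whereas VLDLR and MTHFD2 met it downward in both. Under BRDT-OE the fibroblast gene COL1A1 (-0.90 ± 0.13) and the squamous marker DSG3 (-1.08 ± 0.09) also fell, and 2 of 7 squamous markers rose. Their part in the values of the list was not tested.

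**Figure D1:**
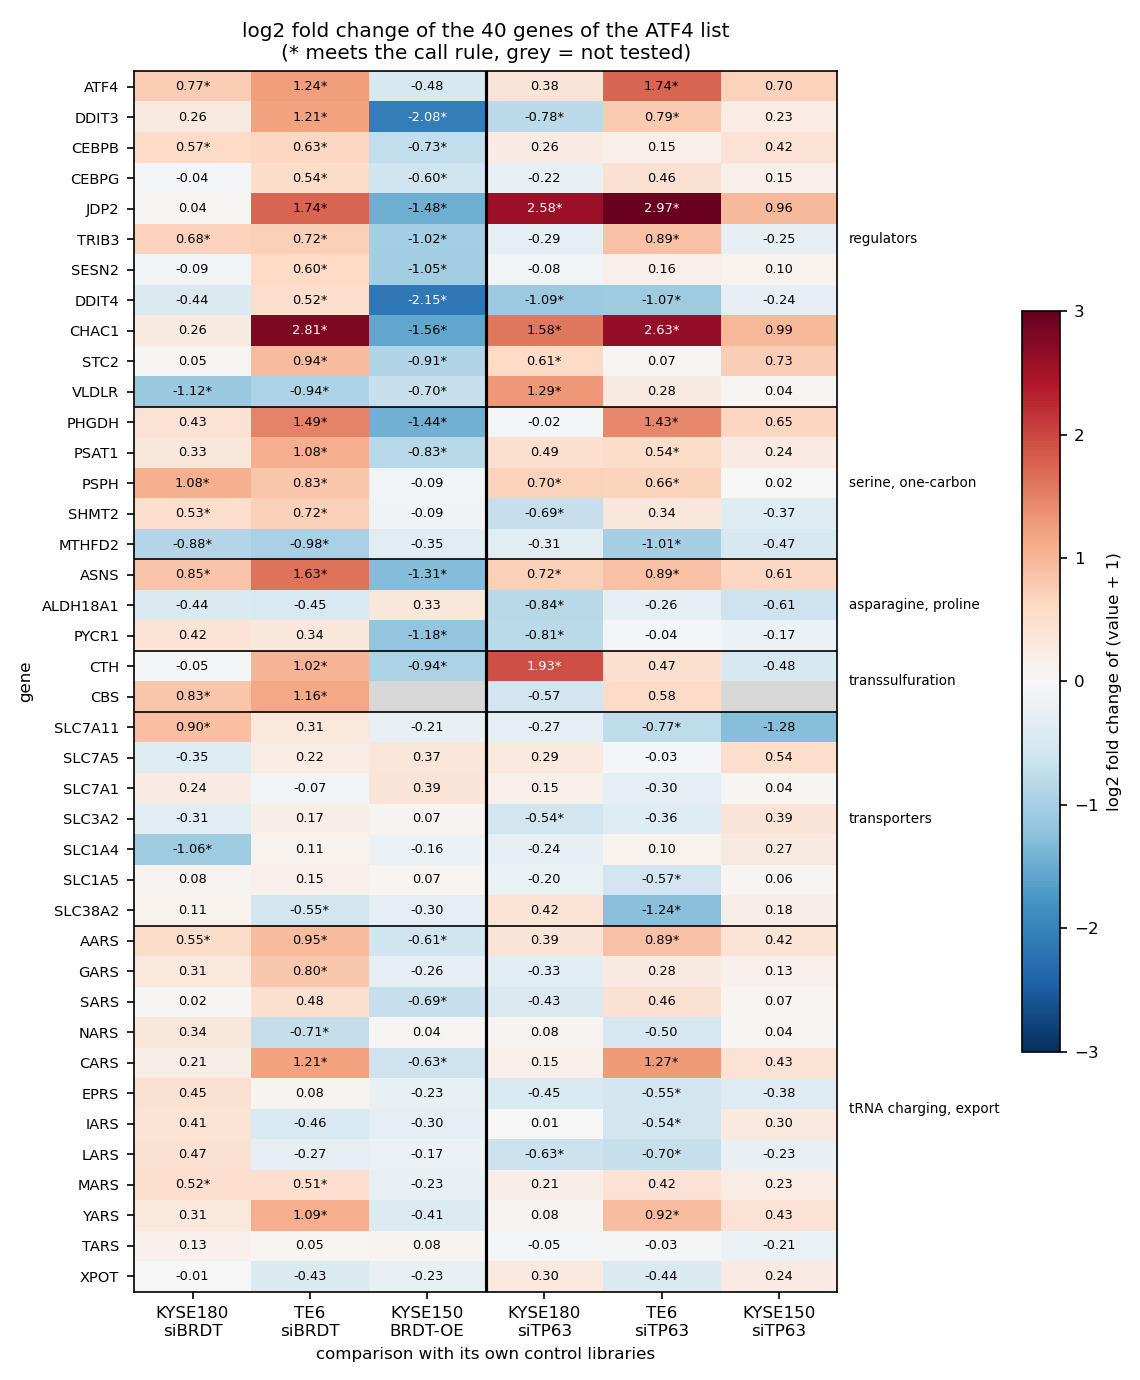
Heat map of the log2 fold change of (normalised read count + 1) for the 40 genes (rows, grouped by role) in 6 comparisons (columns), each against its own control libraries. The 3 columns left of the thick line chose the list and are a description, the 3 on the right are the siTP63 comparisons. An asterisk marks a gene that meets the call rule and grey a gene that was not tested. JDP2 has the highest value under siTP63 in both KYSE180 and TE6, and regulators are blue under BRDT-OE.

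AARS, alanyl-tRNA synthetase (chr16:70251983-70289707, minus strand, hg38, now named AARS1), showed the pattern by which the list was chosen. Its normalised read counts were 6142, 6047 and 5894 in siCont and 8977, 8736 and 8791 in siBRDT of KYSE180. In TE6 they were 2434 and 2383 in siCont and 4028 and 5372 in siBRDT. In KYSE150 they were 10122, 10238 and 10015 with the vector and 6492, 6589.8 and 6856 in BRDT-OE. The groups did not overlap in any of the 3 comparisons, with log2 fold changes of 0.55, 0.95 and -0.61. Without overlap, 31% of all genes were higher and 31.8% lower in KYSE180 siBRDT, and 34.5% and 37.3% in TE6 siBRDT. Under BRDT-OE these shares were 30.9% and 29.3%.

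ATF4 itself (chr22:39519695-39522683, plus strand) was 1704, 1508 and 1532 in siCont and 2782, 2738 and 2573 in siBRDT of KYSE180. In TE6 its values were 3399 and 3196 in siCont and 7306 and 8336 in siBRDT. With the vector they were 6073, 5923 and 6925, and in BRDT-OE 4608, 4384 and 4589.7. All siBRDT libraries were above, and all BRDT-OE libraries below, their controls, with log2 fold changes of 0.77, 1.24 and -0.48.

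ASNS, asparagine synthetase (chr7:97851677-97872542, minus strand) and a textbook ATF4 target, had 1871, 1737 and 1730.0 in siCont and 3409, 3058 and 3163 in siBRDT of KYSE180. In TE6 it had 2101 and 2085 in siCont and 6056 and 6929.7 in siBRDT. It had 5393, 5099 and 5825 with the vector and 2109, 2138 and 2319 in BRDT-OE. These groups were far apart in each line, with log2 fold changes of 0.85, 1.63 and -1.31.

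TRIB3, a pseudokinase that feeds back on ATF4, followed the same order in all 3 lines. Its values were 713, 778 and 733 in siCont and 1180.5, 1233 and 1159 in siBRDT of KYSE180, and 1184 and 1025 against 1677 and 1957 in TE6. They were 3813, 3720.0 and 3931 with the vector and 1867, 1855 and 1911 in BRDT-OE. The log2 fold changes were 0.68, 0.72 and -1.02, and CEBPB, a C/EBP partner of ATF4, had 0.57, 0.63 and -0.73.

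Several regulators had unlike fold changes under siBRDT in KYSE180 and TE6, a difference that was not tested. CHAC1, an enzyme that degrades glutathione, had 209, 221 and 208 in siCont and 249, 286 and 234 in siBRDT of KYSE180, a log2 fold change of 0.26. In TE6 it had 81.8 and 61.2 in siCont and 446 and 564 in siBRDT, a log2 fold change of 2.81 and the largest of the list. In KYSE150 it had 327, 298 and 334 with the vector and 117, 112 and 94.2 in BRDT-OE, a log2 fold change of -1.56. The TE6 groups were the farthest apart, and no group overlapped its control.

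DDIT3, the transcription factor CHOP, had 288, 257 and 256 in siCont and 330.0, 328 and 302 in siBRDT of KYSE180, and 206 and 212 against 508 and 461 in TE6. With the vector it had 931, 930.0 and 1071, and in BRDT-OE 223, 246 and 219. None of these groups overlapped, and the log2 fold changes were 0.26, 1.21 and -2.08. DDIT3 (chr12:57516588-57521737, minus strand) overlaps the end of another gene of the list, MARS (chr12:57475445-57517569, plus strand), and the library kit did not mark strand, so reads of the shared bases cannot be told apart.

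DDIT4, an inhibitor of mTORC1 signalling also known as REDD1, was the gene of the list with the lowest fold change under BRDT-OE. It had 11461, 9721 and 11426 with the vector and 2555, 2298 and 2458 in BRDT-OE, a log2 fold change of -2.15. Its values were 4654, 4289 and 3923 in siCont and 3269.9, 3361 and 2875 in siBRDT of KYSE180, and 1552 and 1503 against 2005 and 2392 in TE6. Both lines had groups that did not overlap, yet in opposite directions, with log2 fold changes of -0.44 and 0.52.

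SESN2, a leucine sensor upstream of mTORC1, had overlapping groups in KYSE180, with 366, 390.1 and 452 in siCont and 359.8, 401 and 370.0 in siBRDT. In TE6 it had 179 and 183 in siCont and 249 and 302 in siBRDT, a log2 fold change of 0.60. BRDT-OE had 248, 276 and 277, all below the 574, 621 and 478 of the vector. Its log2 fold changes in KYSE180 and under BRDT-OE were -0.09 and -1.05.

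Among the other regulators, JDP2, a repressor of AP-1 and ATF type promoters, had log2 fold changes of 0.04 in KYSE180, 1.74 in TE6 and -1.48 under BRDT-OE. CEBPG, another C/EBP partner, had -0.04, 0.54 and -0.60. The secreted glycoprotein gene STC2 had 0.05, 0.94 and -0.91. The lipoprotein receptor gene VLDLR, on the other hand, was lower in all 3, at -1.12, -0.94 and -0.70. Under BRDT-OE 10 of the 11 regulators met the rule downward, where 16.0% of all genes did. Nothing is read from this count, since AARS in that comparison helped to choose the list.

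In serine and one-carbon synthesis the fold changes under siBRDT were again larger in TE6 for PHGDH and PSAT1. PHGDH, the first enzyme of serine synthesis, had 3825, 3756 and 3467 in siCont and 5346, 5013 and 4592 in siBRDT of KYSE180, and 3706 and 3331 against 9337 and 10394 in TE6. It had 2624, 2245 and 2807 with the vector and 1014, 838 and 979 in BRDT-OE. PHGDH groups were apart in each line, with log2 fold changes of 0.43, 1.49 and -1.44.

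PSAT1, which follows PHGDH in that pathway, had 1448, 1396 and 1393 in siCont and 1874, 1741 and 1709 in siBRDT of KYSE180, and 938 and 1049 against 2082 and 2126 in TE6. It had 6585, 6599.6 and 7143 with the vector and 3724, 3784 and 3922 in BRDT-OE. Its log2 fold changes were 0.33, 1.08 and -0.83. PSPH, the last step to serine, had 1.08 and 0.83 in the knockdowns and -0.09 under BRDT-OE, and SHMT2, which passes the serine carbon to folate in mitochondria, had 0.53, 0.72 and -0.09. MTHFD2, the next mitochondrial folate enzyme, went the other way, with -0.88, -0.98 and -0.35.

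SLC7A11, the cystine transporter subunit xCT, had 1895, 1894 and 2042 in siCont and 3125, 3579 and 4292 in siBRDT of KYSE180, a log2 fold change of 0.90. In TE6 it had 1037 and 1167 in siCont and 1555 and 1199 in siBRDT, a log2 fold change of 0.31 with 1 siBRDT library close to the controls. The vector libraries, at 1119, 1278 and 1068, overlapped BRDT-OE, at 829.6, 1320.2 and 894. Of the 7 transporters only SLC7A11 met the rule upward under siBRDT. SLC1A4 (-1.06 in KYSE180) and SLC38A2 (-0.55 in TE6) met it downward, and none met it under BRDT-OE. Of all genes, 14.5% met it upward and 15.8% downward in KYSE180 siBRDT, and 15.6% and 18.1% in TE6 siBRDT. Under BRDT-OE these shares were 10.5% and 16.0%.

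In tRNA charging, 2 of 12 genes (AARS and MARS) met the rule upward in KYSE180 siBRDT and none downward. Of all genes, 14.5% met it upward and 15.8% downward there. In TE6 siBRDT AARS, GARS, CARS, MARS and YARS met it upward, with log2 fold changes from 0.51 to 1.21. The asparaginyl-tRNA synthetase gene NARS met it downward, at -0.71. The shares of all genes were 15.6% upward and 18.1% downward. AARS, SARS and CARS met the rule downward under BRDT-OE, at -0.61, -0.69 and -0.63, where 16.0% of all genes did. AARS led to the list, so nothing is read from these counts. In proline synthesis PYCR1 had 0.42, 0.34 and -1.18 and ALDH18A1 -0.44, -0.45 and 0.33. In transsulfuration CTH had -0.05, 1.02 and -0.94. CBS, the other enzyme of that route, had 0.83 and 1.16 in the knockdowns. It was at 0 in 8 of the 10 KYSE150 libraries and at 1 read in the other 2, and a count of 0 allows up to 3 reads by counting error, or 2.49 to 4.45 normalised read counts in those 8 libraries.

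**Figure D2:**
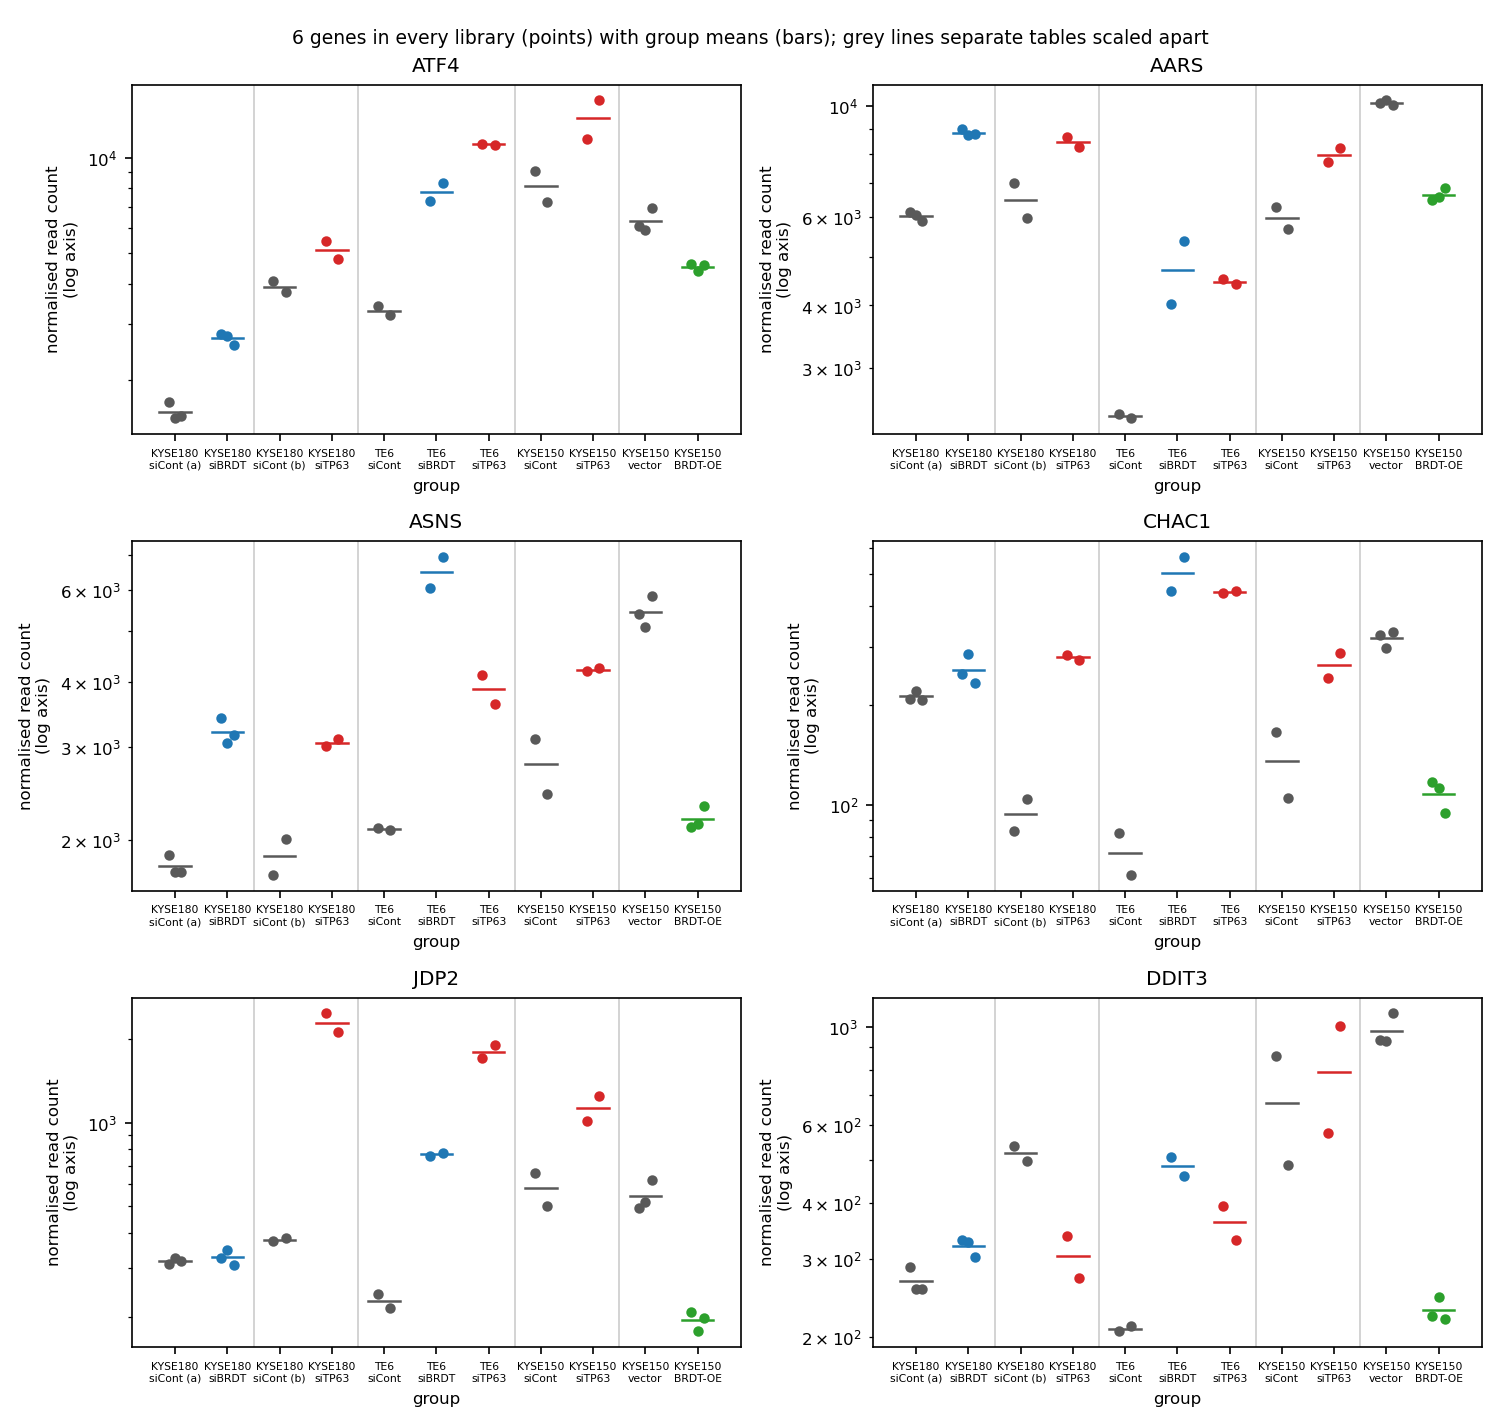
Normalised read counts (log axis) of ATF4, AARS, ASNS, CHAC1, JDP2 and DDIT3 in each of the 26 libraries (points) with the mean of each group (short bars) in the 11 groups. Grey vertical lines separate tables scaled apart, within which values can be compared, and siCont (a) and (b) are the controls of the siBRDT and siTP63 tables of KYSE180. ASNS lies above siCont in all siBRDT and siTP63 libraries and below the vector in BRDT-OE, while DDIT3 falls in KYSE180 siTP63 and rises in TE6 siTP63.

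In order to see whether the list moved with p63, the squamous master factor encoded by TP63, the siTP63 comparisons were tested in each line. TP63 fell from 2573 and 3035 to 794 and 925 in KYSE180, a log2 fold change of -1.70 ± 0.14 (SE, adjusted p = 4.9e-10). In TE6 it fell from 2596 and 2785 to 133 and 112, a change of -4.45 ± 0.12 (adjusted p = 1.34e-10). In KYSE150 it was 695 and 729 in siCont and 170.4 and 114 in siTP63, with a log2 fold change of -2.34 ± 0.26 that missed the threshold (adjusted p = 0.0818). BRDT was not called in any of them, with log2 fold changes of -0.05 ± 0.14 in KYSE180, -0.09 ± 0.16 in TE6 and -2.81 ± 1.40 in KYSE150, where it was 60.9 and 8.25 in siCont and 0 and 10.6 in siTP63. Of 8 squamous markers, TP63 included, 7 were called down in KYSE180 and 8 in TE6, and the part of this in the results below was not tested.

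In KYSE180, siTP63 moved genes of the list in both directions. It raised JDP2, CHAC1, STC2, VLDLR, PSPH, ASNS and CTH and lowered DDIT3, DDIT4, SHMT2, ALDH18A1, PYCR1, SLC3A2 and LARS. These 7 called up and 7 called down among 40 compare with 23.6% called up and 25.7% called down among all 13924 genes tested. The median log2 fold change of the list was -0.01 and that of all genes 0.00. With the libraries rescaled to equal upper quartiles, all genes shifted by a median of 0.22 and 13 genes of the list were called up and 4 down, where all genes split into 4644 up and 2556 down in place of 3292 and 3577. The list's median then was 0.21, next to that of all genes.

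JDP2 showed the largest change, from 374 and 384 in siCont to 2466 and 2108 in siTP63, a log2 fold change of 2.58 ± 0.14 (adjusted p = 2.12e-13). CTH, which makes cysteine from cystathionine, rose from 151 and 259.8 to 730.1 and 785, by 1.93 ± 0.19 (adjusted p = 4.05e-09). CHAC1 rose from 83.4 and 104 to 284 and 275, by 1.58 ± 0.18 (adjusted p = 7.94e-08). Both siTP63 libraries were above both siCont libraries for all 3 genes, and the 2 siCont libraries differed most for CTH. Such a separation was common in KYSE180 siTP63, upward for 39.8% and downward for 40.4% of all genes.

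PSPH rose from 525 and 484 to 799.9 and 839.7, by 0.70 ± 0.14 (adjusted p = 0.000183), and ASNS from 1711 and 2008 to 3012 and 3105, by 0.72 ± 0.14 (adjusted p = 0.000116). PHGDH, in contrast, had 9156 and 8742 in siCont and 9413 and 8230.5 in siTP63, overlapping groups with a log2 fold change of -0.02 ± 0.16. PSAT1 was 934 and 1039 in siCont and 1349.8 and 1415 in siTP63, at 0.49 ± 0.14 just under the fold-change limit and so not called. It met the limit with equal upper quartiles (0.71), with edgeR (0.53), without siCont replicate 2 (0.56) and without siTP63 replicate 1 (0.52). Of the 3 steps to serine, the last was therefore called in KYSE180 and the first was not. SHMT2 fell by 0.69 on the log2 scale, and its call was lost with equal upper quartiles (-0.47).

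Among the genes that fell, DDIT4 went from 2254 and 3339 to 1233 and 1351, a log2 fold change of -1.09 ± 0.16 (adjusted p = 2.62e-06). DDIT3 went from 538 and 499 to 337 and 271, by -0.78 ± 0.16 (adjusted p = 0.000158). ALDH18A1, the first enzyme of proline synthesis, went from 1398 and 1409.7 to 757 and 812 (-0.84 ± 0.14, adjusted p = 1.32e-05), and PYCR1, the last, had -0.81 ± 0.14. Both proline genes of the list were thus lower while ASNS was higher.

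LARS, leucyl-tRNA synthetase, was the one gene of 12 in tRNA charging that was called in KYSE180. It fell from 2172 and 2040.0 to 1344 and 1367 (-0.63 ± 0.14, adjusted p = 0.000344) and lost the call with equal upper quartiles (-0.42). SLC3A2, the heavy chain that several amino acid transporters share, fell from 26928 and 24456 to 18322 and 16973 (-0.54 ± 0.18, adjusted p = 0.0116). That call was lost without siCont replicate 1 (-0.47), without siTP63 replicate 2 (-0.49), with equal upper quartiles (-0.32), with edgeR (-0.49) and with no filter on low values (adjusted p = 0.0512). STC2 (0.61 ± 0.15) lost its call without siCont replicate 1 (0.45) and VLDLR (1.29 ± 0.33) without siTP63 replicate 1 (1.06).

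ATF4 and AARS lay below the fold-change limit in KYSE180. ATF4 was 4085 and 3765 in siCont and 5444 and 4791 in siTP63 (0.38 ± 0.15, adjusted p = 0.0288). AARS was 6996 and 5983 in siCont and 8641 and 8283 in siTP63 (0.39 ± 0.16, adjusted p = 0.0347). Neither pair of groups overlapped, and both genes met the call rule with equal upper quartiles, at 0.60. TRIB3 had 834 and 792 against 693 and 638 (-0.29), SESN2 244 and 197 against 211 and 203 (-0.08) and SLC7A11 1861 and 1833 against 1565 and 1488 (-0.27), none of them called.

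In TE6, siTP63 raised ATF4, DDIT3, JDP2, TRIB3 and CHAC1 among the regulators, PHGDH, PSAT1, PSPH and ASNS in amino acid synthesis and AARS, CARS and YARS in tRNA charging. It lowered DDIT4, MTHFD2, the transporters SLC7A11, SLC1A5 and SLC38A2, and EPRS, IARS and LARS. These were 12 called up and 8 called down of 40, against 18.3% and 20.6% of all 13333 genes, with a median log2 fold change of 0.22 for the list and -0.01 for all genes. The 2 siCont libraries of this test are those of the siBRDT comparison that helped to choose the list, so the test is not independent of the choice. With equal upper quartiles 13 were called up and 5 down, and the list's median was 0.30. All genes then split into 1978 up and 1605 down in place of 2442 and 2742, with a median of 0.07.

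JDP2 rose from 242 and 216 to 1699 and 1895, a log2 fold change of 2.97 ± 0.12 (adjusted p = 4.29e-09). CHAC1 rose from 81.8 and 61.2 to 439 and 444, by 2.63 ± 0.17 (adjusted p = 2.09e-07). ATF4 rose from 3399 and 3196 to 11061 and 10945, by 1.74 ± 0.09 (adjusted p = 6.85e-08). These were the genes of the list with the highest fold changes in TE6, and no siTP63 library came near a siCont library. Groups without overlap were common in TE6 siTP63, upward for 39.8% and downward for 40.7% of all genes.

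In amino acid synthesis PHGDH rose from 3706 and 3331 to 9281 and 9674, by 1.43 ± 0.10 (adjusted p = 2.78e-07). ASNS rose from 2101 and 2085 to 4128 and 3631, by 0.89 ± 0.10 (adjusted p = 1.95e-05). PSAT1 rose from 938 and 1049 to 1479.6 and 1413, by 0.54 ± 0.10 (adjusted p = 0.000748), and lost the call without siCont replicate 1 (0.46). All 3 steps to serine were called upward in TE6, with PSPH at 0.66 ± 0.11. MTHFD2 fell by 1.01 on the log2 scale (adjusted p = 5.2e-06).

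Of the tRNA synthetases, CARS, for cysteine, rose from 720.0 and 685 to 1665 and 1718, by 1.27 ± 0.12 (adjusted p = 4.15e-06). AARS rose from 2434 and 2383 to 4512 and 4417, by 0.89 ± 0.12 (adjusted p = 6.96e-05), and YARS, for tyrosine, by 0.92 ± 0.12. The synthetases did not move together, since LARS (-0.70 ± 0.10), EPRS (-0.55 ± 0.12) and IARS (-0.54 ± 0.12) fell. EPRS lost its call without siCont replicate 2 or siTP63 replicate 2 (both -0.49), IARS without siCont replicate 2 (-0.48), and both with equal upper quartiles (-0.47 and -0.46).

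Of the 7 transporters 3 were called down in TE6 and none up, where 20.6% of all genes were called down and 18.3% up. SLC38A2, which carries glutamine and alanine, fell from 1751 and 2167 to 779.6 and 867 (-1.24 ± 0.12, adjusted p = 6.13e-06). SLC7A11 fell from 1037 and 1167 to 649.6 and 638 (-0.77 ± 0.13, adjusted p = 0.000339). SLC1A5, another glutamine carrier, fell by 0.57 on the log2 scale and lost the call with equal upper quartiles (-0.49). Both siTP63 libraries were below both siCont libraries for SLC38A2, SLC7A11, SLC1A5, SLC3A2 and SLC7A1, as they were for 40.7% of all genes. No transporter group was above its controls by the call rule.

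DDIT4 fell in TE6 as in KYSE180, from 1552 and 1503 to 697 and 756 (-1.07 ± 0.11, adjusted p = 8.54e-06). DDIT3 rose from 206 and 212 to 394 and 330.0 (0.79 ± 0.14, adjusted p = 0.000453) and TRIB3 from 1184 and 1025 to 1988 and 2095 (0.89 ± 0.11, adjusted p = 4.34e-05). SESN2 was 179 and 183 in siCont and 215 and 189 in siTP63, at 0.16 ± 0.15, and was not called. Under siBRDT in the same table, DDIT4 was above siCont rather than below it, with the same siCont libraries in both comparisons.

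In KYSE150 no gene of the list was called under siTP63, and 0% of all 12335 genes were called up and 0% down by limma, for which the lowest adjusted p was 0.08. edgeR called none either, and DESeq2 called 202 genes up and 259 down, with 1 of the list, SLC7A11, down. At an unadjusted p under 0.05, 4 of 39 genes of the list were higher and 2 lower, where 8.67% and 9.12% of all genes were. The higher ones were JDP2, CHAC1, STC2 and ASNS, and the lower ones ALDH18A1 and SLC7A11. Both siTP63 libraries were above both siCont libraries for 16 genes of the list and below them for 7, against 24.3% and 24.6% of all genes. The median log2 fold change of the list was 0.15, or 0.0766 without siTP63 replicate 1, and that of all genes -0.01. The endothelial marker CDH5 was 19.3 and 7.07 in siCont and 145 and 82.5 in siTP63 (adjusted p = 0.112), and its part in these values was not tested. Libraries of unlike number deviated together here (r = -0.70 between same-numbered ones), which these tests do not model. With a block for it, chosen after seeing the data, 7 genes of the list were called up and 2 down. Of all genes, 1626 were then up and 1774 down.

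CHAC1 had 166 and 105 in siCont and 243 and 287 in siTP63 (0.99 ± 0.30, adjusted p = 0.187), JDP2 had 658 and 502 against 1013 and 1243 (0.96 ± 0.23), and ATF4 9101 and 7232 against 11454 and 15148 (0.70 ± 0.29). SLC7A11 had 342 and 289 in siCont and 105 and 157 in siTP63 (-1.28 ± 0.28, adjusted p = 0.131). These 4 genes had groups that did not overlap, although none passed the threshold.

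ASNS had 3117 and 2446 in siCont and 4199.8 and 4243 in siTP63 (0.61 ± 0.22), AARS 6277 and 5679.8 against 7707 and 8230.2 (0.42 ± 0.23) and ALDH18A1 2138 and 2303 against 1565 and 1342 (-0.61 ± 0.20), all without overlap. DDIT4 had 7975 and 6544 against 6196 and 6037 (-0.24 ± 0.23), CTH 486 and 377 against 371 and 254 (-0.48 ± 0.27) and CARS 3936 and 3081 against 4286 and 5169 (0.43 ± 0.24). DDIT4 and CTH were lower and CARS higher in both siTP63 libraries.

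The groups overlapped for TRIB3, with 3366 and 2432 in siCont and 2156 and 2699 in siTP63, and for DDIT3, with 859.8 and 488 against 576 and 1003. PHGDH had 2652 and 1687 against 2711 and 4066, where the lower siTP63 library was just above the higher siCont library. PSAT1 had 2394 and 2933 against 3710.4 and 2644, and SESN2 376 and 220.3 against 315 and 303, both with overlap. The sign of the fold change turned with the library left out for DDIT3, SESN2 and PSAT1, so no direction is given for them.

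Across the 3 siTP63 comparisons, ATF4, CEBPB, JDP2, CHAC1, STC2, VLDLR, PSAT1, PSPH, ASNS, AARS, CARS, MARS and YARS, 13 of 39 genes, had fold changes above 0 in every line. DDIT4, MTHFD2, ALDH18A1, PYCR1, SLC7A11, EPRS, LARS and TARS, 8 of 39, were below 0 in every line. Of the 11337 genes tested in every table, 17.5% were above 0 and 22.1% below 0 in all 3. PSAT1 did not keep its sign in KYSE150 under every library left out. Called upward in both KYSE180 and TE6 were JDP2, CHAC1, PSPH and ASNS, and called downward in both were DDIT4 and LARS, where 4.79% and 6.54% of those genes were called the same way in both lines. SLC7A5, SLC7A1 and TARS were not called in any of the 6 comparisons, nor was XPOT, which exports tRNA from the nucleus.

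The response to siTP63 differed between KYSE180 and TE6 for 25 of the 40 genes, by a limma contrast of the 2 fold changes at an adjusted p under 0.05. The TE6 siCont libraries of this contrast also served in the comparison that helped to choose the list. The fold change was higher in KYSE180 for 11 genes and higher in TE6 for 14, where 26.2% and 28.8% of all 12780 genes differed in these directions. These shares over all genes are near those of the list. TP63 itself fell less in KYSE180, by a difference of 2.74 ± 0.19 on the log2 scale, and COL1A1, a collagen gene of fibroblasts, differed by 0.56 ± 0.22. Their part in the differences below was not tested.

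Higher in TE6 were 5 of the 11 regulators, 2 of the 5 serine and one-carbon genes, both proline genes and 5 of the 12 genes of tRNA charging. DDIT3 was called in opposite directions, down in KYSE180 and up in TE6, a difference of -1.56 ± 0.21 (KYSE180 minus TE6, adjusted p = 6.89e-06 by limma). PHGDH differed by -1.45 ± 0.16 (adjusted p = 1.05e-06), ATF4 by -1.36 ± 0.16 (adjusted p = 2e-06), TRIB3 by -1.18 ± 0.17 and CARS by -1.12 ± 0.19. CHAC1 was called up in both lines and still differed, by -1.05 ± 0.25 (adjusted p = 0.00174). SHMT2, SARS, YARS, PYCR1, CEBPG, GARS, ALDH18A1 and AARS made up the rest, with differences from -1.03 to -0.50.

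Higher in KYSE180 were SLC38A2, with 834 and 888 in siCont and 1084 and 1224 in siTP63 of that line and a difference of 1.66 ± 0.18 (adjusted p = 9.87e-07), and CTH, with 1.46 ± 0.28 (adjusted p = 0.000252). SLC38A2 had fold changes of 0.42 in KYSE180 and -1.24 in TE6, of which the second was called. VLDLR, XPOT, MTHFD2, NARS, IARS, STC2, SLC7A11, SLC7A1 and SLC1A5 were the others, with differences from 0.37 to 1.01. SLC38A2, SLC7A11, SLC7A1 and SLC1A5 were 4 of the 7 transporters in this direction, with none in the other. Of all genes, 26.2% differed in this direction and 28.8% in the other. With equal upper quartiles 7 genes of the list were higher in KYSE180 and 10 in TE6. Of all genes, 2896 and 2295 then differed in these directions, in place of 3351 and 3677. Leaving out any siCont or siTP63 library of the contrast left 1 library in its group. Fewer genes were then called higher in KYSE180, in the list and over all genes. The number of the list higher in TE6 fell in some of these fits and rose in others, while that of all genes fell.

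JDP2 (-0.38 ± 0.18, adjusted p = 0.0766), ASNS (-0.17 ± 0.17), DDIT4 (-0.01 ± 0.21), PSPH (0.04 ± 0.17), PSAT1 (-0.06 ± 0.16) and LARS (0.07 ± 0.16) did not pass the test of the difference. The call of the difference was kept under all 16 alternatives for 15 of the 25 genes, among them DDIT3, PHGDH, ATF4, SLC38A2 and CTH. For AARS (-0.50 ± 0.18, adjusted p = 0.0261) it was lost under 8 of them, and the difference ran from -0.62 to -0.37 over all 16.

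**Figure D3:**
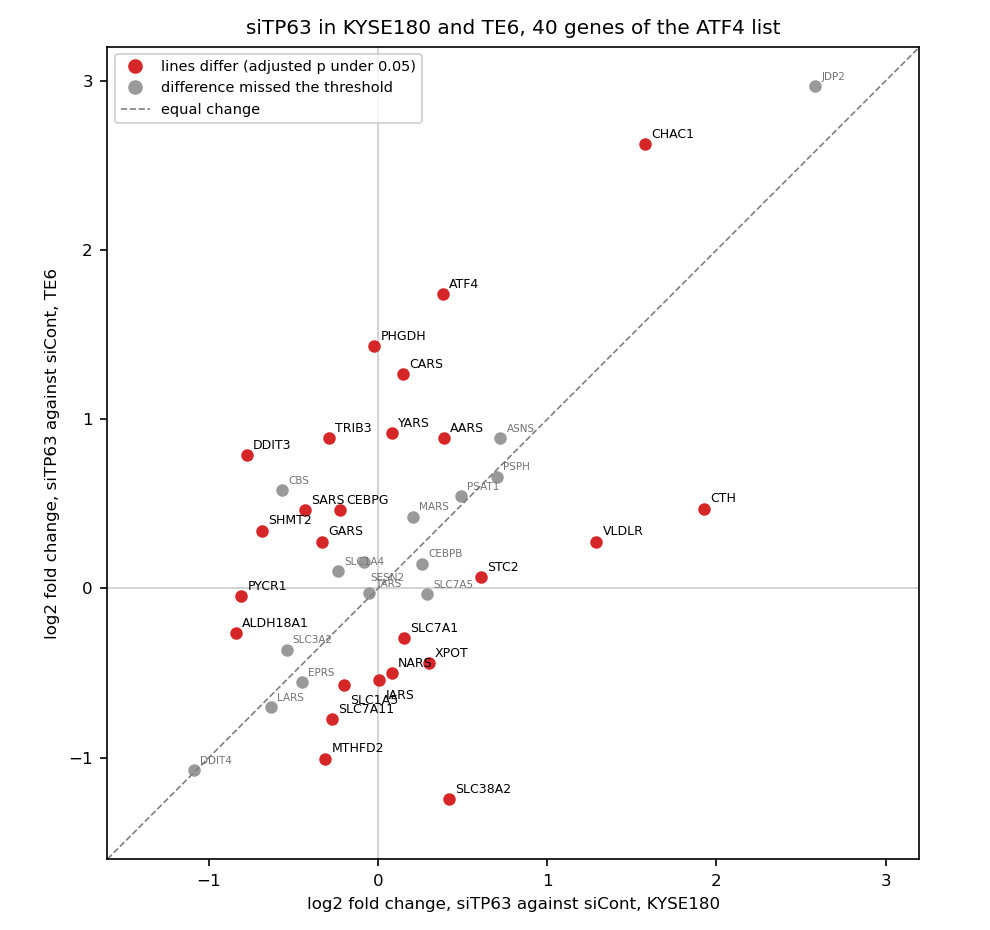
Log2 fold change of siTP63 against siCont in KYSE180 (x axis) and in TE6 (y axis) for the 40 genes, with the dashed line at equal change. The 25 genes in red differ between the lines at an adjusted p under 0.05, and the 15 in grey missed it. ATF4, PHGDH and DDIT3 lie above the line and CTH, VLDLR and SLC38A2 below it.

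The remaining aminoacyl-tRNA synthetases, which are not on the list, were lower in KYSE180 siTP63 than those on it. Of the 11 cytosolic synthetases on the list none was called up and 1 down, with a median log2 fold change of 0.01, whereas of the other 9 cytosolic synthetases none was called up and 6 down, with a median of -0.92. Among the latter were VARS (-1.52 ± 0.16), FARSB (-1.45 ± 0.14) and KARS (-1.22 ± 0.15). Of 17 mitochondrial synthetases none was called up and 7 down, with a median of -0.42, among them FARS2 (-0.92 ± 0.15). Of all genes tested in KYSE180 siTP63, 23.6% were called up and 25.7% down. With equal upper quartiles the medians were 0.22, -0.70 and -0.21.

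In TE6 siTP63 the same 3 sets had 3 up and 3 down of 11, 1 up and 3 down of 9, and 2 up and 5 down of 17, with medians of 0.28, -0.21 and -0.21. Of all genes tested there, 18.3% were called up and 20.6% down. WARS, for tryptophan, was the one called up among the other cytosolic synthetases (0.95 ± 0.10). The difference between KYSE180 and TE6 was called for 8 of the 9 other cytosolic synthetases, each with the higher fold change in TE6, and for 3 of the 9 with equal upper quartiles. Of all 12780 genes, 3677 (28.8%) had a called difference in that direction, and 2295 with equal upper quartiles. In KYSE150 none of the 3 sets held a called gene, and their medians were 0.13, -0.28 and -0.17. Which synthetases are on the list was chosen with earlier results of these data known, so these contrasts between sets carry no test.

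**Figure D4:**
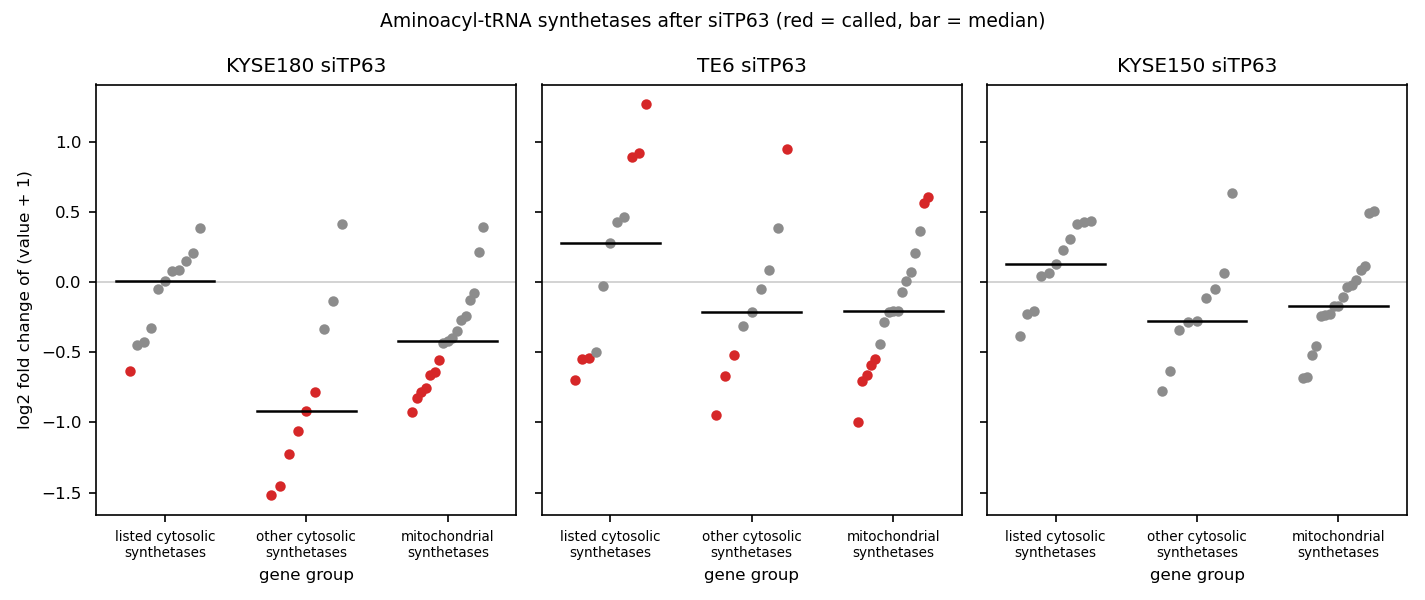
Log2 fold change under siTP63 of the aminoacyl-tRNA synthetases in 3 lines, for the 11 cytosolic synthetases on the list, the other 9 cytosolic and 17 mitochondrial synthetases. Each point is a gene, red where called, and the bar is the median of the set. In KYSE180 the bar of the other cytosolic synthetases lies at -0.92 and that of the listed ones at 0.01.

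Other genes of the pathway, 22 that are not on the list, were kinases, phosphatase subunits, EIF2S1 (eIF2 alpha) and further ATF4 targets. They showed 11 called up and 4 down in KYSE180 siTP63 and 9 up and 3 down in TE6 siTP63. EIF2S1 was among those called down in KYSE180 (-0.90 ± 0.14) and was not called in TE6 (-0.05 ± 0.09). Over all genes, 23.6% were called up and 25.7% down in KYSE180, and 18.3% and 20.6% in TE6. ADM2, a secreted peptide gene, had 2.33 ± 0.22 in KYSE180 and 3.27 ± 0.20 in TE6, and the glycine transporter gene SLC6A9 had 1.76 ± 0.17 and 1.78 ± 0.17. ALDH1L2, a mitochondrial folate enzyme, rose by 1.49 ± 0.23 in KYSE180 and NUPR1, a stress-induced chromatin protein gene, by 1.996 ± 0.139 in TE6. The kinase gene EIF2AK3 (PERK) rose in KYSE180 (1.19 ± 0.21) and had -0.21 ± 0.19 in TE6, a difference that passed the test (1.40 ± 0.29, adjusted p = 0.000559). The kinase genes EIF2AK2 (1.21 ± 0.17) and EIF2AK1 (0.56 ± 0.17) were also called up in KYSE180, while EIF2AK4 (GCN2) was not called (-0.08 ± 0.14). In TE6 EIF2AK1, EIF2AK2, EIF2AK3 and EIF2AK4 were not called. EIF4EBP1, which restrains cap-dependent translation, was called down in KYSE180 (-1.11 ± 0.15) and up in TE6 (0.80 ± 0.10). GADD45A (-0.91 ± 0.18) and MTHFD1L (-0.88 ± 0.14) were also called down in KYSE180. Called down in TE6 were KLHL24 (-0.98 ± 0.27), GADD45A (-0.71 ± 0.20) and SLC38A1 (-0.70 ± 0.15). KLHL24 and SLC38A1 were called up in KYSE180.

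This set had 1 gene upward and 8 downward of 20 tested under BRDT-OE, given as a description. It had 4 up and 4 down of 22 in KYSE180 siBRDT and 8 up and 5 down of 22 in TE6 siBRDT. The shares of all genes called up and down were 10.5% and 16.0% under BRDT-OE and 14.5% and 15.8% in KYSE180 siBRDT. In TE6 siBRDT they were 15.6% and 18.1%. These siBRDT counts are also a description. Chaperones and degradation factors of the endoplasmic reticulum include many targets of the other branches of the unfolded protein response. These chaperones and factors had 2 up and 4 down of 13 in KYSE180 siTP63 and 3 up and 3 down of 12 in TE6 siTP63. The shares of all genes were 23.6% and 25.7% in KYSE180 siTP63 and 18.3% and 20.6% in TE6 siTP63. HERPUD1 was called up in both lines (1.18 ± 0.15 and 0.63 ± 0.12), while SDF2L1 fell in KYSE180 (-1.96 ± 0.15) and had -0.06 ± 0.14 in TE6. HSPA5, the main chaperone of that compartment, was not called in either line (-0.28 and -0.15).

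Set beside the promoter motif, the 8 genes with a match had a median log2 fold change of 0.20 in KYSE180 siTP63, with 3 called up and none down. The 26 with a promoter sequence and no match had 0.03, with 3 up and 4 down. In TE6 siTP63 the values were 0.68 with 4 up and 2 down, and 0.12 with 6 up and 4 down, and in KYSE150 siTP63 0.36 and 0.18 (25 genes) with no call. Over all genes, 23.6% were called up and 25.7% down in KYSE180, and 18.3% and 20.6% in TE6. The genes with a match ranged in TE6 from SLC1A5 (-0.57) to JDP2 (2.97), so the match did not go with 1 direction. ATF4, PHGDH, TRIB3 and DDIT3 were called in TE6, had a promoter sequence and held no match in the window searched.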

How the data were processed

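mRNA of 26 libraries (TruSeq RNA v2) was sequenced and, by the study's methods and the submitters' processing notes, aligned to hg38 with STAR 2.6.0, counted with HTSeq 0.11.2 and normalised with DESeq2 1.24.0. The authors deposited a signal, the normalised read count (count divided by a size factor), in 5 tables scaled apart. In each library 100% of values were whole multiples of 1 read within a tolerance of 0.01, so whole reads could be recovered, with 7582089 to 19372441 reads per library. The strand setting of the counting is not given in the sources used here.

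Groups came from the labels. Genes with a table mean of at least 10 were tested on log2(value + 1) with limma 3.58.1 (R 4.3.3) and a mean-variance trend, each table alone and the 3 TE6 groups in 1 model, with Benjamini-Hochberg adjustment over all genes. This scale understates the fold changes of low genes. A gene was called at an adjusted p under 0.05 with a log2 fold change beyond 0.5, and a difference between lines at an adjusted p under 0.05. Errors are SE of the model.

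The genes and the other gene lists were chosen with earlier results of these data known. Genes given by library were AARS, 10 ATF4 targets and regulators, and in each siTP63 comparison the called gene with the largest fold change in each role. For other lists a few called genes with the largest fold changes are named. EIF2AK3, EIF2S1, HERPUD1 in TE6, HSPA5 and genes given beside them were chosen after their values were seen.

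Alternatives were a pseudocount of 0.1, no filter, equal upper quartiles (0.75), a replicate block, the 2 groups alone in TE6, no fold-change limit, leaving out each library, and count tests on the reads so recovered (DESeq2 1.42.0, edgeR 4.0.16). Scripts were tested on simulated data. Reads have no molecular identifiers, so limits at 0 counts cover counting error only. Promoters and their sequences were taken from RefSeq (GRCh38.p14) and gene positions from GENCODE release 44 (hg38).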

Additional observations from a re-analysis of the deposited data

Results flagged for a closer look

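The fold change under siTP63 differed between KYSE180 and TE6 for 25 genes of the list (limma contrast of both fold changes, adjusted p under 0.05), given here as KYSE180 minus TE6 on the log2 scale. Among the regulators the differences were -1.56 for DDIT3, -1.36 for ATF4, -1.18 for TRIB3, -1.05 for CHAC1, -0.69 for CEBPG, 0.54 for STC2 and 1.01 for VLDLR. In amino acid synthesis they were -1.45 for PHGDH, -1.03 for SHMT2, -0.76 for PYCR1, -0.58 for ALDH18A1, 0.69 for MTHFD2 and 1.46 for CTH. The transporters had 1.66 (SLC38A2), 0.50 (SLC7A11), 0.45 (SLC7A1) and 0.37 (SLC1A5). In tRNA charging the differences were -1.12 for CARS, -0.89 for SARS, -0.84 for YARS, -0.61 for GARS, -0.50 for AARS, 0.55 for IARS, 0.58 for NARS and 0.74 for XPOT. The calls of SLC1A5, AARS, SLC7A1, VLDLR, SLC7A11, STC2, ALDH18A1, IARS, CEBPG and GARS were lost under at least 1 of the 16 alternatives, and SLC1A5, with an adjusted p of 0.0493, under 9 of them. The share of all genes that differed was 26.2% with the higher value in KYSE180 and 28.8% with the higher value in TE6.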

How the results depend on the processing

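Changing the scaling to equal upper quartiles gave 13 genes up and 4 down with a median of 0.21 in KYSE180 siTP63, 5 down and 0.30 in TE6 siTP63, a median of 0.26 in KYSE150 siTP63, 0.32 in KYSE180 siBRDT, 1 down and 0.81 in TE6 siBRDT, -0.49 under BRDT-OE, and 7 genes with the higher siTP63 fold change in KYSE180. Under this scaling, all genes split into 2712 up and 586 down in TE6 siBRDT (2074 and 2419 otherwise). TE6 siTP63 then had 1978 up and 1605 down (2442 and 2742 otherwise). Under BRDT-OE all genes split into 966 up and 2430 down (1343 and 2043 otherwise). The splits differ since this scaling shifts every gene of a table alike. In KYSE180 siTP63 it reversed PHGDH (0.19) and SESN2 (0.13). The medians were 0.0436 with edgeR and 0.0053 with DESeq2 in KYSE180 siTP63, where PHGDH had 0.0292 with edgeR, and 0.214 and 0.225 in TE6 siTP63. The cause was not tested. Without a filter the BRDT-OE median was -0.38, as CBS entered. With no fold-change limit, 11 genes were up and 10 down in KYSE180 siTP63, and 18 up and 11 down in TE6 siTP63. Over all genes these counts were 3890 and 4313 of 13924, and 3280 and 3437 of 13333. Without that limit 23 were up and 7 down in KYSE180 siBRDT, against 3893 and 4044 of all 13589 genes. TE6 siBRDT had 24 up and 8 down, against 2925 and 3182 of all 13333 genes. Under BRDT-OE 3 were up and 28 down, against 3326 and 3195 of all 12765 genes. DESeq2 called 1 gene down in KYSE150 siTP63.

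Leaving out 1 library at a time gave medians from -0.0430 to 0.0389 in KYSE180 siTP63, 0.19 to 0.24 in TE6 siTP63, 0.23 to 0.31 in KYSE180 siBRDT and -0.45 to -0.38 under BRDT-OE. In KYSE180 siTP63 PHGDH ran from -0.12 to 0.0732 and SESN2 from -0.24 to 0.0681. In KYSE150 siTP63 0 to 1 genes of the list were called down, with DDIT3 from -0.18 to 0.64, SESN2 from -0.28 to 0.49 and PSAT1 from -0.0028 to 0.49. There a lone library is assumed to vary like the other group, and 108 to 182 of all genes were called up and 77 to 177 down. The median there ran from 0.0766 to 0.188. From 6 to 11 genes had the higher siTP63 fold change in KYSE180.

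Same-numbered libraries did not deviate together (correlations of their deviations from the group means lay between -0.70 and 0.18), so the numbers were not taken to pair them. The -0.70 was that of KYSE150 siCont and siTP63, where libraries of unlike number therefore deviated together. The cause of this was not tested. A replicate block changed no count of called genes of the list (7 up and 7 down in KYSE180 siTP63, 12 and 8 in TE6 siTP63, 0 and 0 in KYSE150 siTP63). Over all genes it called 89 up and 48 down in KYSE150 siTP63. With the numbers crossed, an alternative chosen after seeing the data, 1626 of all genes were up and 1774 down, with 7 and 2 of the list. With 2 or 3 libraries per group and 7582089 reads in the shallowest library, small differences may not be detectable.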
